A study of Homo sapiens with 6 samples.

Results

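In A172 cells, 62 genes rose at least 4-fold with an siRNA against ADAR1 and lost at least 50% of that rise, on the log2 scale, when an siRNA against Staufen1 was added. They are 62 of the 20514 rows of the count table, where a row is a gene given as a group of UCSC hg19 transcripts. A172 is an established human glioblastoma line. Read counts were compared in 3 groups of 2 libraries, labelled as transfected with siControl, with siADAR1, or with both siADAR1 and siStaufen1, which is called the combined knockdown here. Per the labels, the treatment described for all 6 libraries includes an HA-STAU1 plasmid on the day following siRNA transfection, and that description leaves out siStaufen1. A group with siStaufen1 alone was not analysed here, so its effect is seen only on top of siADAR1, and each siRNA group stands for 1 cell line.

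The members were chosen by their measured levels in all 6 libraries, so the rise, the reversal and the gap that remained are a description. Calls by edgeR are given below only as counts, beside the share of all rows called except for the alternative fits, and support nothing. The level of a row is its mean count scaled to 1000000 reads of its library (CPM) in a group plus 0.1. A member had a siControl level of at least 1, a log2 rise of at least 2 from siControl to siADAR1, and a recovery of at least 50%. Recovery is the log2 fall on adding siStaufen1, given as a percent of the log2 rise, so that 0% means no return and 100% means the siControl level. Of 392 rows with such a rise and such a siControl level, 62 (15.8%) had that recovery and 330 did not. The counts leave aside 3 rows excluded by name. With these included, 394 rows had such a rise and siControl level, and 1 of the 3 would have been a member.

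ADAR1 edits adenosines to inosines where RNA is double-stranded, and it can bind such RNA without editing it. Staufen1 (STAU1) binds double-stranded structures, many of them in the 3' ends of mRNAs, and can recruit the decay factor UPF1, so that the mRNA is degraded, a route known as Staufen-mediated mRNA decay. The title of the series places ADAR1 in opposition to that decay. Knockdown by siRNA lowers the mRNA of the target, and its effects on other mRNAs can be direct or can follow from the cell's response.

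The table names rows only by UCSC transcript IDs. No member could be paired with a symbol through RefSeq's synonyms for GRCh38.p14 genes (0 of 62), so the roles of the members, the levels of ADAR and STAU1 and the markers of the cell line were not analysed here. 4 members carry the leading ID of their row as a name below, and the others are given by their order in the mean siADAR1 level, where 1 is the highest. The library totals ran from 20291057 to 29508632 estimated reads. Nothing in the labels says that replicates came from separate cultures, so the spread between them may be technical.

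The members were genes of low to moderate level. In siControl their mean CPM ran from 0.942 to 34.4, with a median of 3.04 and quartiles of 1.51 and 5.61. All 12734 rows with a siControl level of at least 1 had a median of 15.6 CPM. The siControl level lay between 1 and 2 for 22 members (35.5%), against 9.86% of all those rows, and 10 or more for 7 members (11.3%), against 60.2%. In siADAR1 the members' CPM ran from 4.59 to 139, with a median of 15.1, and 44 of the 62 reached 10 CPM. In the same siADAR1 libraries, all 12734 rows had a median of 21.9 CPM, so the members' median stayed below it. Each member had at least 17 reads in either siControl library and at least 104 in either siADAR1 library.

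**Figure D1:**
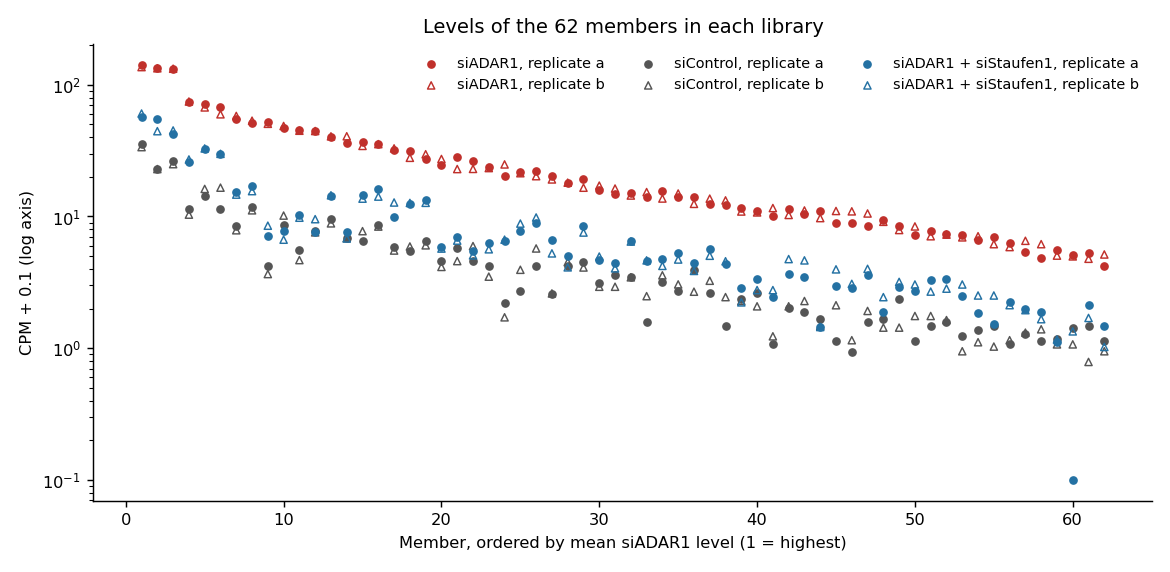
CPM plus 0.1 (log axis) of the 62 members in each of the 6 libraries, ordered along the horizontal axis by the mean siADAR1 level; filled circles are replicate a and open triangles replicate b. Both siADAR1 libraries lie above both siControl libraries and both combined knockdown libraries for all 62, which the rule favoured. Among rows with a siControl level of at least 1, these shares are 59.1% and 50.1%. The single point near the bottom is a member with 0 reads in combined knockdown replicate a.

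Summed over the 62 members, replicates a and b of siControl reached 314 and 316 CPM, the siADAR1 libraries 1692 and 1681, and the combined knockdown libraries 560 and 556. The sum was 5.36 times higher in siADAR1 than in siControl and 3.02 times lower in the combined knockdown than in siADAR1, which left it 1.77 times above siControl. As a share of all reads, the members took 0.0315%, 0.169% and 0.0558% in the same order. The 2 libraries of a group lay close together on this sum. The rule set the groups apart, so nothing is read from the distance between them.

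The rise with siADAR1 was moderate for most members and very large for few. The median was 5.12-fold, 29 members rose 4-fold to 5-fold, 28 rose 5-fold to 8-fold and 5 rose 8-fold or more. All rows with a siControl level of at least 1 had a median of 1.23-fold. The members' folds were not corrected for that shift. In edgeR's fit with TMM scaling, the members' median log2 rise was 2.07, against 2.36 in CPM. All 62 were called higher in siADAR1 by edgeR's quasi-likelihood test at an adjusted p of 0.05, where 32.9% of the 14711 rows tested were called higher. Both siADAR1 libraries stood above both siControl libraries for all 62, as they did for 59.1% of the rows with a siControl level of at least 1. The rule selected on this same contrast and so favoured both counts, and nothing is read from them.

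The largest rise was that of uc004bku.2, a row of 3 transcripts. It had 4.14 and 3.56 CPM in siControl, 51.7 and 50.4 in siADAR1, and 7.06 and 8.41 in the combined knockdown. The siADAR1 libraries were alike and far above the rest, and both combined knockdown libraries lay above both siControl libraries. Its level rose 13.0-fold with siADAR1 and fell 6.53-fold in the combined knockdown, a recovery of 73.2% ± 4.8 (SD over the 2 combined knockdown libraries). A gap of 1.98-fold to siControl remained.

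The other 4 members with rises of 8-fold or more were singled out after their values were seen. The 24th member, a row of 8 transcripts, had 2.12 and 1.62 CPM in siControl, 20.1 and 24.7 in siADAR1, and 6.44 and 6.57 in the combined knockdown. It rose 11.4-fold and recovered by 50.3%, and its remaining 3.36-fold gap to siControl was the widest among the 62. The 46th member had 17 and 26 reads in siControl, a 9.48-fold rise and a gap of 2.85-fold, the second widest. The 41st and 11th members rose 9.39-fold and 8.81-fold and recovered by 63.7% and 68.8%. In all 5, the combined knockdown libraries stayed above the siControl libraries. The same held for 51 of the 62 members and for 52.6% of the rows with a siControl level of at least 1. Nothing is read from it.

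The most abundant member in siADAR1 was uc002jvy.1, a row of 6 transcripts. It had 35.4 and 33.5 CPM in siControl, 142 and 136 in siADAR1, and 57.1 and 60.4 in the combined knockdown. The 3 groups were well apart, with the combined knockdown in the lower part of the interval. The rise was 4.02-fold, the smallest of any member and just inside the rule, and the recovery was 61.7% ± 2.8 (SD over the 2 combined knockdown libraries).

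The members next in siADAR1 level had 133 and 132 CPM there, nearly as much as uc002jvy.1, and the 4th only 74.4. One, a row of 1 transcript, went from 22.9 CPM to 133 and back to 49.4 (54.4 and 44.3 in the libraries). The other, a row of 11 transcripts, went from 25.6 to 132 and back to 43.4. Their recoveries were 56.3% ± 8.3 and 67.8% ± 3.0 (SD over the 2 combined knockdown libraries). The first lay below the lower quartile of the set's recovery and the other above its median, both given below.

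Reversal was partial for most members. The median recovery was 65.5%, with quartiles of 56.8% and 81.2%. It lay under 60% for 26 members, between 60% and 75% for 16, between 75% and 100% for 16, and at 100% or more for 4. Taken one at a time, the combined knockdown libraries gave medians of 67.5% (replicate a) and 64.9% (replicate b). Recovery was at least 50% in both libraries for 57 members, and the other 5 had 45.3% to 49.9% in replicate b. All 62 were called lower in the combined knockdown than in siADAR1 by the same edgeR test, where 21.5% of the rows tested were, and their libraries did not overlap for all 62, as for 50.1% of the rows with a siControl level of at least 1 in that direction. The rule used this contrast too.

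On the linear scale the same reversal looks more complete. The fall in CPM from siADAR1 to the combined knockdown was a median of 81.9% of the rise in CPM, with a range of 68.1% to 114%, and it was 80% or more for 33 members. The difference between the scales is arithmetical: a gene that rose 4-fold and returned by 50% of the log2 change has lost most of the added reads.

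**Figure D2:**
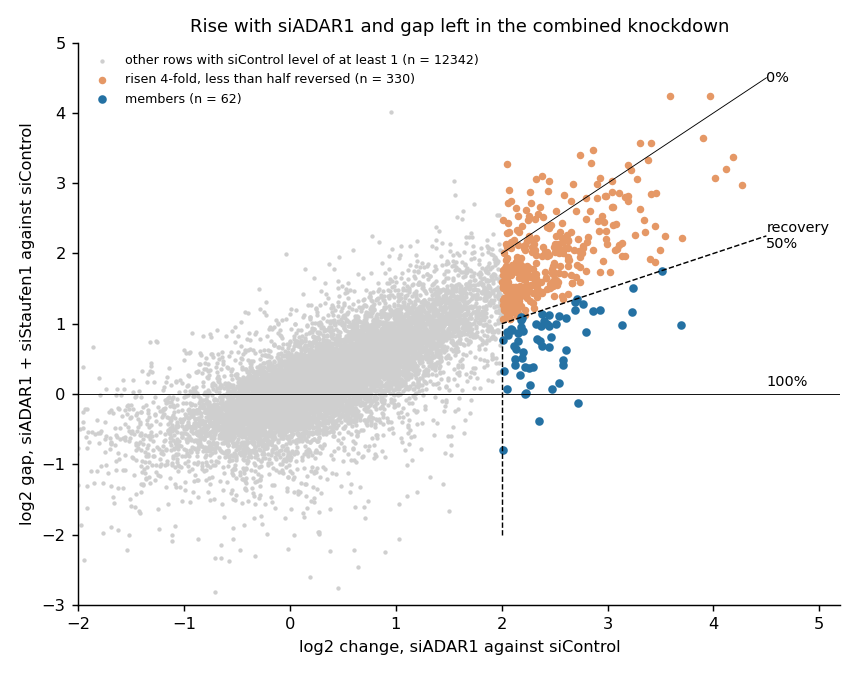
Each point is a row with a siControl level of at least 1; the horizontal axis is the log2 change from siControl to siADAR1 and the vertical axis the log2 gap between the combined knockdown and siControl (79 rows lie outside the axes). The dashed lines bound the 62 members (blue), which lie at gaps of -0.79 to 1.75, while the 330 rows with less recovery (orange) lie at 1.06 to 4.24; the axes share the siControl libraries and the rule sets the boundary.

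The largest fall on adding siStaufen1 was that of uc001hfd.2, a row of 3 transcripts. It had 1.58 and 1.37 CPM in siControl, 10.9 and 9.62 in siADAR1, and 1.35 and 1.35 in the combined knockdown. In CPM the combined knockdown libraries, with 33 and 38 reads, lay just below both siControl libraries, which had 32 and 34 reads. The fall was 7.17-fold, after a rise of 6.59-fold, and the recovery was 104% ± 0.081 (SD over the 2 combined knockdown libraries). This SD, like the others given for recovery, holds the siControl and siADAR1 means fixed. With 33 and 38 reads it does not measure how precisely the recovery is known. At such counts the difference from siControl was not detectable, and edgeR did not call it.

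The highest recovery belonged to uc001vvu.3, a row of 2 transcripts, and rested on 1 library. It had 1.33 and 0.970 CPM in siControl and 5.01 and 4.88 in siADAR1, and 0 and 1.24 in the combined knockdown. The libraries of the combined knockdown disagreed, with 0 reads in replicate a, which allows up to 0.122 CPM (3 reads, counting error only), and 35 reads in replicate b. The recovery over both was 139% ± 132 (SD over these libraries), and replicate b alone gave 94.9%.

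The other 2 members at or below the siControl level were the 10th and the 22nd, named here by order after their values were seen. The 10th, a row of 1 transcript, had 8.58 and 10.1 CPM in siControl, 47.2 and 48.5 in siADAR1, and 7.67 and 6.57 in the combined knockdown. Both combined knockdown libraries lay below both siControl libraries, and the recovery was 116% ± 6.6 (SD over the 2 combined knockdown libraries). It was the only member that edgeR called lower than siControl, where 25.8% of the rows tested were called lower. The 22nd, also a row of 1 transcript, had 4.53 and 5.86 CPM in siControl and 5.38 and 4.97 in the combined knockdown, with overlapping libraries and a recovery of 100.3% ± 3.6 (SD over the same libraries).

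The gap that remained to siControl was less than 2-fold for 45 of the 62 members. The median gap was 0.85 on the log2 scale, or 1.80-fold, against a median rise of 2.36 (5.12-fold). Over all rows with a siControl level of at least 1, the median of the same quantity was 0.18. Below or at the siControl level lay 4 members, 15 were above it by less than 1.5-fold, 26 by 1.5-fold to 2-fold, and 17 by 2-fold or more. The median gap was 0.84 in replicate a of the combined knockdown and 0.81 in replicate b.

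**Figure D3:**
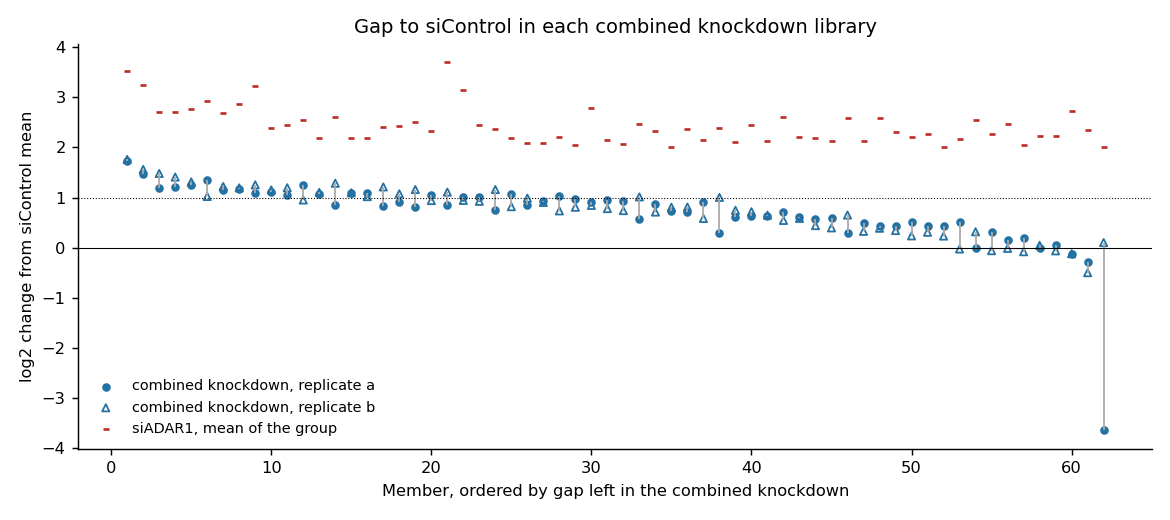
Log2 change from the siControl mean for each member in the 2 combined knockdown libraries (circle, replicate a; triangle, replicate b; grey line, their range), ordered by the gap, with the siADAR1 group mean as a red dash; the dotted line marks 2-fold. 17 members lie at 2-fold or more and 4 at or below 0, and the libraries of uc001vvu.3, at the far right, are far apart (-3.64 and 0.10).

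By library, both combined knockdown values were above both siControl values for 51 members, as for 52.6% of the rows with a siControl level of at least 1. They overlapped siControl for 9 members, against 20.4% of those rows, and were below for 2, against 27%. By edgeR's quasi-likelihood test, 40 members were called higher than siControl, where 28.7% of the rows tested were, 21 were not called, where 45.5% were not, and 1 was called lower. The rule limits how far the combined knockdown can lie above siControl. Its required rise also favours rows measured low in siControl, in the same libraries compared here. These counts are therefore a description. A missing call does not show that a member was back at its siControl level.

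The 40 members called higher and the 21 not called differed in more than the gap. The former had a median gap of 0.99 and a median recovery of 58.9%, the latter 0.37 and 83.5%. Median siControl levels were 3.29 and 2.22 CPM, so that fewer reads stood behind the members not called. In 11 of the 21, both combined knockdown libraries lay above both siControl libraries. The share among all rows with a siControl level of at least 1 was 52.6%, so nothing is read from the 11. Among the members not called that had deeper counts, the 12th had 7.64 and 7.48 CPM in siControl. It had 7.505 and 9.44 in the combined knockdown, after 44.3 and 44.4 in siADAR1. The 14th had 6.80 and 6.75, then 7.59 and 6.71, after 35.8 and 40.5. Their gaps were 1.12-fold and 1.05-fold, and their libraries overlapped those of siControl.

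Median recovery differed little between the upper and lower parts of the set by siADAR1 level. No finer split by level was made. The 31 members with the higher siADAR1 levels had a median recovery of 67.8% and a median gap of 0.88, and the 31 with the lower levels 64.7% and 0.81. In either part 10 members recovered by 75% or more. The agreement of replicates, which the rule did not use, was near that of other rows of low siControl level. The median absolute log2 difference between the libraries of a group was 0.22 in siControl, 0.11 in siADAR1 and 0.16 in the combined knockdown. It was 0.23, 0.14 and 0.16 for the 5073 rows with siControl levels between 1 and 10. In siADAR1 those rows had a median of 5.465 CPM, against 15.1 for the members, so the depths there are unlike.

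The number of transcripts per row, another property the rule did not use, was that of other rows of similar siControl level. The 62 rows held 221 transcript IDs, 1 to 17 per row, with a median of 3. The median was also 3 for the 330 rows with less recovery and for all rows with a siControl level of at least 1. Rows of 1 transcript made up 27.4% of the members (17), 26.1% of the rows with less recovery and 20.8% of all those rows, and 27.2% of the rows with siControl levels between 1 and 10. Rows of 6 or more made up 14.5% of the members (9), 16.7%, 18.1% and 14.7% in the same order. No test over genes was made, and nothing particular to the members is read from these shares.

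**Figure D4:**
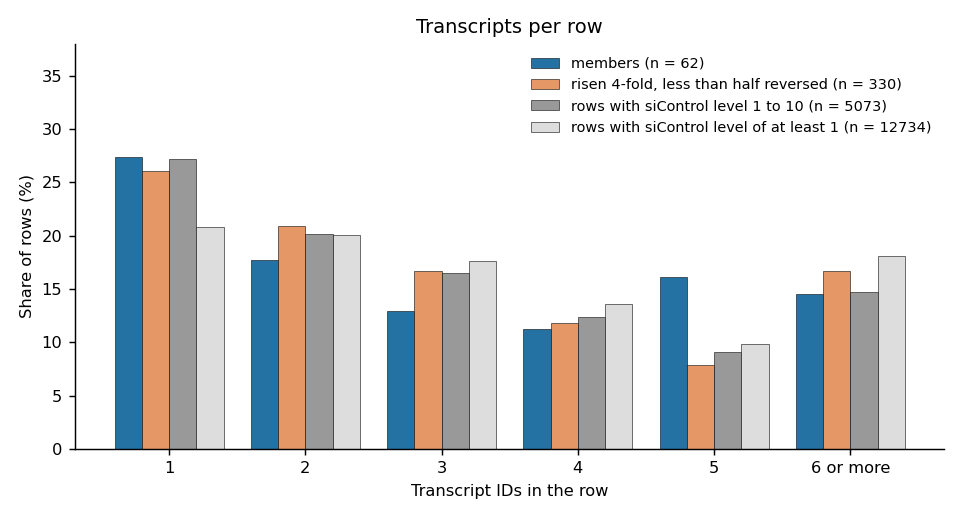
Share of rows (%) by the number of transcript IDs in the row, for the 62 members, the 330 rows that rose 4-fold with less recovery, rows with siControl levels between 1 and 10, and all rows with a siControl level of at least 1. Rows of 1 transcript are 27.4%, 26.1%, 27.2% and 20.8% of these sets.

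The 9 members with 6 or more transcripts had recoveries of 50.02% to 68.8%, with a median of 53.7%, and 6 of them kept a gap of 2-fold or more. The 17 members with 1 transcript had recoveries of 53.4% to 116%, with a median of 71.2%, and 2 of them kept such a gap. The 9 were also more abundant, with a median of 44.8 CPM in siADAR1 against 23.5 for the 17. The row with the most transcripts, 17, was the 11th member, which had 5.42 and 4.57 CPM in siControl, 44.9 and 44.7 in siADAR1, and 10.2 and 9.69 in the combined knockdown. Its recovery of 68.8% was the highest of the 9, and the row of 11 transcripts recovered by 67.8%, so that both lay above the median of all members. These parts of the set were compared after their values were seen, and the difference was not tested.

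The rows that rose as much and came back less were somewhat more abundant. Their median was 4.66 CPM in siControl and 24.6 CPM in siADAR1, against 3.04 and 15.1 for the members, while the median rise was 2.32 against 2.36 on the log2 scale. They differed by construction in the combined knockdown, where their median was 17.5 CPM against 4.80. Their median recovery was 22.4%. By edgeR 199 of the 330 (60.3%) were called lower than siADAR1, 30 (9.09%) were called higher and 101 (30.6%) were not called. Among all rows with a siControl level of at least 1, these shares were 23.39%, 24.27% and 52.35%. The 330 were chosen for their rise in siADAR1, which favours calls below it, so nothing is read from these counts.

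No break in the values marked the limits of the set. The 3 members nearest the recovery limit had 50.02%, 50.2% and 50.3%, and the 3 rows just outside 49.3%, 48.9% and 48.8%. For the log2 rise, the nearest members had 2.01, 2.01 and 2.02 and the nearest rows outside 1.99, 1.97 and 1.97. For the siControl level, they had 1.04, 1.04 and 1.09, against 0.974, 0.952 and 0.952. The number of members therefore moved with the scaling. Under TMM-scaled library sizes, which lowered the log2 rise of the 62 members to a median of 2.07 in edgeR's fit and their gap to 0.70, 37 rows qualified, 35 of them among the 62.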

How the data were processed

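The authors deposited estimated counts per row of UCSC hg19 transcripts, and every value is whole. RSEM 1.2.3, edgeR and build hg19 are named, without their roles, per the submitters' processing notes. Neither the aligner nor a strand setting is stated there, so reads of antisense or near-identical genes may be shared between rows. Per the labels' protocols, total RNA came from miRNeasy extraction and libraries from Lexogen's SENSE mRNA kit (V2).

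Each of the 6 columns matched 1 library by its label. CPM used the column totals, as the rule states. The counts were fitted with edgeR 4.0.16 (R 4.3.3) over the 14711 rows kept by filterByExpr (10 reads, total of 15), with TMM and a mean per group over the 6 libraries (3 residual degrees of freedom), using two-sided quasi-likelihood tests and Benjamini-Hochberg adjustment. All 62 members passed that filter. The code was tested on simulated data. For 2 libraries against 2, the smallest p of an exact two-sided permutation test is 0.333, and none is given. Depth speaks for counting error only.

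The members and the choices here were made with earlier results of these data known. The 4 IDs printed are those with the largest rise, the highest siADAR1 level, the largest fall and the highest recovery, each row counted once. Alternatives were DESeq2 1.42.0, other scalings, pseudocounts, limits and filters, glmTreat, the replicate letter as a block and each library left out.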

Additional observations from a re-analysis of the deposited data

How the results depend on the processing

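The number of members followed the scaling and the limits, since many rows lie near them. It was 37 under TMM-scaled library sizes, 35 under DESeq2 size factors, 40 with a siControl level of at least 2, 189 with a log2 rise of at least 1.5, 36 with a recovery of at least 60% and 99 with at least 40%. The median recovery was 63.3% under TMM-scaled library sizes, 63.1% with a pseudocount of 0.5, 67.7% with a siControl level of at least 0.5, 62.0% with a log2 rise of at least 1.5, and 76.8% and 56.3% with recovery limits of 60% and 40%. The median remaining gap was 0.81 under TMM-scaled library sizes, 0.78 under DESeq2 size factors, 0.83 with a pseudocount of 0.01, 0.79 with a siControl level of at least 0.5, 0.69 with a log2 rise of at least 1.5, and 0.50 and 1.07 with recovery limits of 60% and 40%. Members with a recovery of at least 100% numbered 2 with a siControl level of at least 2, 7 with at least 0.5, and 16 with a log2 rise of at least 1.5. These limits change the set by construction.

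With each library left out in turn and the rule applied anew, 59 to 67 rows qualified, of which 50 to 62 were among the 62. The median recovery ran from 64.4% to 69.0%, the median gap from 0.81 to 0.86, the median siADAR1 level from 14.1 to 16.4 CPM and the median number of transcripts from 2 to 3. Members with a recovery of at least 100% numbered 3 to 7, with 7 when replicate a of the combined knockdown was left out. For the 62 members, with a lone library assumed to vary like the other groups, 35 to 39 calls above siControl and 1 to 2 below were made in the combined knockdown, the 2 without its replicate b.

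Of 48 alternative counts of members called, 44 lay within 1.5 times the reported count. Many of these counts concern the rise with siADAR1 or the fall on adding siStaufen1, which the rule selected on. Those counts stayed close to 62 in every fit, and the selection built in that closeness. Every count outside the range came from comparing the combined knockdown with siControl. The 44 therefore do not measure how stable the calls are. With glmTreat at 1.5-fold, which asks for a larger change, 11 members were called higher and 0 lower than siControl in the combined knockdown, and without the filter on low counts 2 were called lower. DESeq2 called 34 higher. With the replicate block 40 members were called higher and 1 lower, as without it. The share of all rows called is not given for the alternatives, so nothing is read from their counts of calls. Across genes, the differences between replicates a and b correlated between groups by 0.051, 0.021 and 0.0060, and the letters were treated as mere names, not as a pairing.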
